A study of Homo sapiens with 12 samples.

Results

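The 31 genes described here carry out or control the synthesis of cholesterol and fatty acids. They were chosen by name and not by a measured value, although earlier results of these data were known at the time. Each of the 31 names matched a single entry among the 58830 entries of the table, and all 31 were among the 20456 genes that passed the filter of at least 10 normalized counts in at least 3 libraries. By role, 4 are control factors (SREBF1, SREBF2, INSIG1 and STARD4), 7 act from acetyl-CoA to farnesyl diphosphate in the mevalonate pathway, 11 act from farnesyl diphosphate through squalene to cholesterol, and 9 make, elongate or desaturate fatty acids.

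RNA-seq was performed on A549, a human lung adenocarcinoma epithelial line, in 4 groups of 3 libraries each. The edited line (A549_Sm22mut, labelled miR-22/SNAI1 edge knockout) given TGFβ at 10 ng/mL was set against untreated cells of the same line and against the wild-type line (A549_WT) given TGFβ at that dose, with untreated wild-type cells as the remaining group. All groups were sampled on day 5 and were grown in medium with fetal bovine serum, which itself supplies sterols and fatty acids. Only 1 edited derivative was sequenced. The effect of the edit and that of deriving the line therefore cannot be told apart. P-values measure the spread between biological repeats of these cultures.

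Cells make cholesterol from acetyl-CoA through mevalonate and squalene, and make fatty acids from the same acetyl-CoA through malonyl-CoA. Transcription of both routes is driven by sterol regulatory element-binding proteins (SREBPs), which are held in the endoplasmic reticulum by INSIG proteins when sterols are plentiful and are cut and sent to the nucleus when sterols run low. SREBF2 encodes the form best known for the cholesterol route and SREBF1 the forms best known for fatty acids. In the lung, alveolar type 2 cells use these routes to make surfactant lipid, and tumour cells often use them to make membrane. TGFβ is a secreted factor that drives epithelial cells towards a mesenchymal state, a change that SNAI1, a transcriptional repressor and a target of miR-22, takes part in.

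Each library held 84210775 to 111141708 recovered reads. The lowest value of any member in any library was 259 normalized counts, for CYP51A1. The median coefficient of variation of the 31 members within a group lay between 3.95% in untreated edited cells and 7.32% in untreated wild-type cells. SNAI1 itself averaged 1313 ± 96.5 normalized counts in edited cells with TGFβ, 481 ± 43.4 in untreated edited cells, 875 ± 97.2 in wild-type cells with TGFβ and 496 ± 88.6 in untreated wild-type cells (SD, n = 3 each). Its level does not check a label on an edited binding site. The mitochondrially encoded transcripts took 2.20% to 2.64% of the counts in edited cells with TGFβ, 2.23% to 2.51% in untreated edited cells, 2.73% to 3.79% in wild-type cells with TGFβ and 2.54% to 2.83% in untreated wild-type cells. The 6 epithelial markers summed to between 486508 and 648914 in every library, most of it from KRT8, KRT18 and KRT7. With TGFβ 5 of the 6 (EPCAM, KRT8, KRT18, CDH1 and KRT19) fell and KRT7 rose in both lines, CDH1 to 10285 ± 336 in edited cells, against 34091 ± 1721 untreated, and to 9233 ± 204 in wild-type cells, against 28540.3 ± 1821 untreated. In untreated edited cells KRT7 and CDH1 were higher and EPCAM lower than in untreated wild-type cells. With TGFβ EPCAM was higher in edited cells. The part of these changes in the results below was not tested. SFTPC, SFTPB and SFTPA1, which define alveolar type 2 cells, averaged under 10 in all 4 groups. NKX2-1, the remaining gene of the alveolar type 2 list, averaged 24.2 in edited cells with TGFβ and 9.40 in untreated edited cells. It averaged 17.3 in wild-type cells with TGFβ and 10.2 in untreated wild-type cells. With TGFβ NKX2-1 was called higher in edited cells and not in wild-type cells. The fibroblast list of 6 genes summed to 1695 to 2016 in edited cells with TGFβ, 213 to 281 in untreated edited cells, 1200.5 to 1399 in wild-type cells with TGFβ and 145 to 187 in untreated wild-type cells. In it 4 genes rose with TGFβ in edited cells and 5 in wild-type cells, while DCN averaged under 10 in every group. Its part in the TGFβ results below was not tested. In cell populations such as these, fewer cells of a kind and less RNA per cell cannot be told apart.

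In untreated edited cells, many cholesterol and fatty acid synthesis genes were lower than in untreated wild-type cells, with members of all 4 roles among them. Of the 31 members 19 were lower and none higher at an adjusted p under 0.05 (limma, Benjamini-Hochberg over all tested genes), which is 61.3% of the members against 31.8% of all tested genes called in either direction, 14.3% higher and 17.5% lower. The count of higher members was also 0 at an unadjusted p under 0.05 and by edgeR. The median log2 fold change was -0.33 over the members and 0.00211 over all tested genes. Lower levels were called for 3 of the 4 control factors (75%), 6 of the 7 mevalonate genes (85.7%), 4 of the 11 sterol genes (36.4%) and 6 of the 9 fatty acid genes (66.7%). The sterol share is near the 31.8% of all tested genes called in either direction. It is above the 17.5% of all tested genes called lower. The desaturases FADS2 and SCD and the elongase ELOVL5 fell most among fatty acid genes, and ACAT2 and STARD4 fell most among the others. Between the lines, 20 members were lower in every untreated edited library than in any untreated wild-type library, against 25.1% of all tested genes, and 3 members were higher in every one, against 23.7%.

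**Figure D1:**
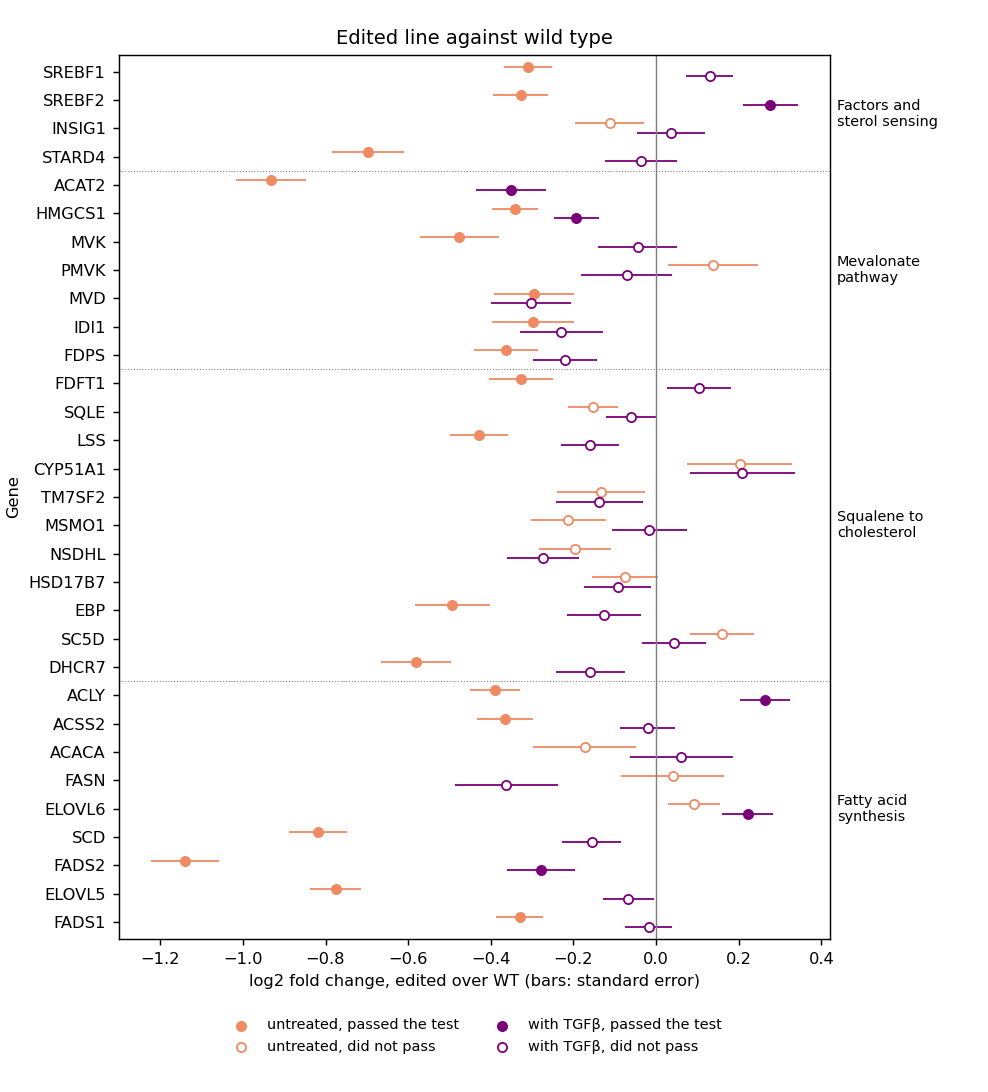
Log2 fold change of each of the 31 members, edited over wild type, in cells with TGFβ and in untreated cells, with bars for the standard error and filled points for genes past the adjusted p threshold of 0.05. Untreated, 19 members lie past the threshold and all of those are below 0; with TGFβ, 3 lie above and 3 below.

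FADS2, the delta-6 desaturase that starts the conversion of essential fatty acids to longer polyunsaturated ones, had 13819, 13227 and 13989 normalized counts in untreated edited cells, against 32913, 26934 and 30887 in untreated wild-type cells. Every edited library lay below every wild-type library, and the log2 fold change was -1.14 ± 0.08 (adjusted p = 7.17e-08). SCD, the delta-9 desaturase that makes oleate and palmitoleate, had 59358, 52969.6 and 57339 in untreated edited cells, against 104368, 94479 and 100284 in untreated wild-type cells, a log2 fold change of -0.82 ± 0.07 (adjusted p = 4.85e-07). The groups did not overlap, and SCD was the most abundant member per length, with 10548 normalized counts per kb of exon in untreated edited cells and 18596 in untreated wild-type cells. ELOVL5, which elongates polyunsaturated fatty acids, had 14801, 14570.3 and 15474 in untreated edited cells, against 27477, 23919 and 25481 in untreated wild-type cells, a log2 fold change of -0.78 ± 0.06 (adjusted p = 1.84e-07). FADS2 and ELOVL5, together with FADS1, the delta-5 desaturase, hold the desaturation and elongation steps from linoleate to arachidonate. FADS1 averaged 48138 ± 692 in untreated edited cells and 60528 ± 1358 in untreated wild-type cells (log2 fold change -0.33 ± 0.06, adjusted p = 0.000365).

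The genes that feed acetyl-CoA were lower too. ACLY, which splits citrate into cytosolic acetyl-CoA, had 36948, 35492 and 36703 normalized counts in untreated edited cells, against 46122, 48366 and 48474 in untreated wild-type cells (log2 fold change -0.39 ± 0.06, adjusted p = 0.00014). ACSS2, which makes acetyl-CoA from acetate, averaged 2331 ± 152 in untreated edited cells and 2999 ± 28.3 in untreated wild-type cells, with a log2 fold change of -0.37 ± 0.07 (adjusted p = 0.000644). For both genes the groups were apart. The enzymes that build the saturated chain did not pass the test. ACACA, acetyl-CoA carboxylase, averaged 9422 ± 1007 in untreated edited cells and 10590.2 ± 511 in untreated wild-type cells. FASN, fatty acid synthase, averaged 5365 ± 579 in untreated edited cells and 5209 ± 462 in untreated wild-type cells. ELOVL6, which extends palmitate to stearate, averaged 2885 ± 70.3 in untreated edited cells and 2709.6 ± 128 in untreated wild-type cells and did not pass either.

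In the mevalonate pathway, ACAT2, which joins acetyl-CoA units in the cytosol, had 1853, 2033 and 1972 normalized counts in untreated edited cells, against 4043, 3436 and 3707 in untreated wild-type cells. The highest edited library lay well under the lowest wild-type library, and the log2 fold change was -0.93 ± 0.08 (adjusted p = 8.02e-07). HMGCS1, the synthase that makes HMG-CoA, had 12852, 13903 and 13301 in untreated edited cells, against 17116, 16927 and 16706 in untreated wild-type cells (log2 fold change -0.34 ± 0.06, adjusted p = 0.000217). MVK, mevalonate kinase, had 861, 918 and 812 in untreated edited cells, against 1309.9, 1162 and 1137 in untreated wild-type cells, and its log2 fold change was -0.48 ± 0.10 (adjusted p = 0.00123). FDPS, which makes farnesyl diphosphate, averaged 3632 ± 40.3 in untreated edited cells and 4688 ± 449 in untreated wild-type cells, with a log2 fold change of -0.36 ± 0.08 (adjusted p = 0.00185). MVD, the decarboxylase, and IDI1, the isomerase, fell by less, with log2 fold changes of -0.29 ± 0.10 (adjusted p = 0.029) and -0.30 ± 0.10 (adjusted p = 0.0325). PMVK, phosphomevalonate kinase, was the member of this pathway that did not pass, with 3013 ± 107 in untreated edited cells and 2739 ± 152 in untreated wild-type cells.

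Among the sterol genes, DHCR7, which reduces 7-dehydrocholesterol to cholesterol, had 4395, 3868 and 4397 normalized counts in untreated edited cells, against 6608, 5542 and 6829 in untreated wild-type cells (log2 fold change -0.58 ± 0.08, adjusted p = 7.62e-05). EBP, the sterol isomerase, had 3182, 3196 and 3172 in untreated edited cells, against 5055, 4028 and 4416 in untreated wild-type cells, a log2 fold change of -0.49 ± 0.09 (adjusted p = 0.000571). LSS, which closes the sterol rings, averaged 1350.3 ± 55.9 in untreated edited cells and 1819 ± 133 in untreated wild-type cells, and FDFT1, squalene synthase, averaged 9300.2 ± 233 in untreated edited cells and 11700.4 ± 1039 in untreated wild-type cells. Their log2 fold changes were -0.43 ± 0.07 (adjusted p = 0.000235) for LSS and -0.33 ± 0.08 (adjusted p = 0.00408) for FDFT1. The other 7 sterol genes did not pass. SQLE, squalene epoxidase, averaged 6249.6 ± 175 in untreated edited cells and 6956 ± 509 in untreated wild-type cells, while SC5D, the sterol desaturase, averaged 5448 ± 379 in untreated edited cells and 4886 ± 446 in untreated wild-type cells. The remaining 5 demethylate or reduce the sterol rings. CYP51A1 averaged 596 ± 16 in untreated edited cells and 519 ± 45 in untreated wild-type cells, and TM7SF2 averaged 524 ± 69.2 in untreated edited cells and 572 ± 15.5 in untreated wild-type cells. MSMO1 averaged 5343 ± 151 in untreated edited cells and 6225 ± 829 in untreated wild-type cells, and NSDHL averaged 3010.0 ± 48.8 in untreated edited cells and 3452 ± 179 in untreated wild-type cells. HSD17B7 averaged 1080.2 ± 81.8 in untreated edited cells and 1138 ± 81.2 in untreated wild-type cells.

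Both SREBP genes were lower in untreated edited cells. SREBF1 had 8474, 8454 and 8409.9 normalized counts in untreated edited cells, against 9912, 10297 and 11245 in untreated wild-type cells (log2 fold change -0.31 ± 0.06, adjusted p = 0.000696). SREBF2 had 9757, 8736 and 9412 in untreated edited cells, against 11275, 11393 and 12356 in untreated wild-type cells (log2 fold change -0.33 ± 0.07, adjusted p = 0.00131). The groups of both genes were apart. STARD4, a soluble carrier that moves cholesterol between membranes, had 4263, 3978 and 4625 in untreated edited cells, against 7292, 6277 and 7291 in untreated wild-type cells, a log2 fold change of -0.70 ± 0.09 (adjusted p = 1.94e-05). INSIG1, which retains SREBPs when sterols are plentiful, had 2008, 1799.8 and 1889 in untreated edited cells, against 2279.9, 1790.3 and 2114 in untreated wild-type cells, and these ranges overlapped (log2 fold change -0.11 ± 0.08, 95% interval -0.29 to 0.06, adjusted p = 0.329). Without untreated wild-type replicate 2 the value for INSIG1 was -0.21 with an adjusted p of 0.0488.

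Of these 19 calls 17 were kept in all alternatives run. The IDI1 call was lost without untreated wild-type replicate 1 or 3 (-0.19 and -0.29) and without untreated edited replicate 1 or 2 (-0.26 and -0.28). The MVD call was lost without untreated wild-type replicate 1 or 3 (-0.22 and -0.26) and without untreated edited replicate 1 or 3 (-0.27 and -0.29). Both calls were also lost when the fit held only the compared groups, and the IDI1 call with no filter on low values.

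**Figure D2:**
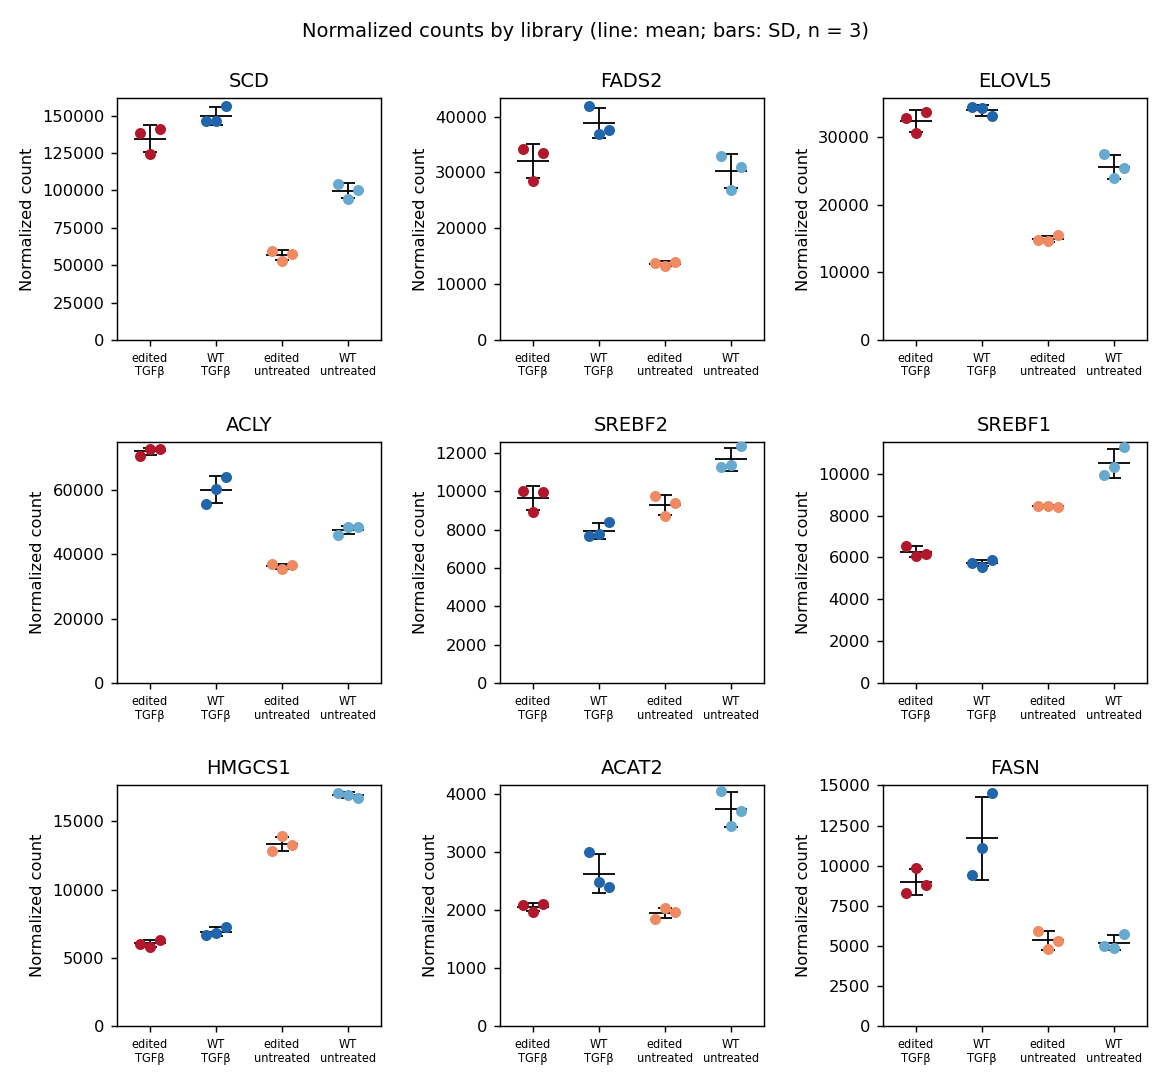
Normalized counts of 9 members in each library, in the order edited with TGFβ, wild type with TGFβ, edited untreated and wild type untreated, each axis starting at 0, with the mean as a line and the SD as bars (n = 3). SCD, FADS2, ELOVL5 and ACLY are lowest in untreated edited cells, and HMGCS1 is low in both groups given TGFβ.

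The promoters of these genes are known for short sequences bound by SREBPs and by their partners NF-Y and Sp1, and 5 promoters are shown because they belong to genes that fell in untreated edited cells and hold an SREBP site. RefSeq (build GRCh38.p14) gave a window of the 250 bases before a start site for 27 of the 31 members. The SREBP site was searched as TCACCCCAC with at most 1 mismatch, NF-Y as CCAAT, Sp1 as GGGCGG and the E-box as CACGTG, all on both strands. The capitals below mark matches to the SREBP site and to CCAAT, or to their reverse complements. The windows are chr6:53348951-53349200 on the minus strand for ELOVL5, chr11:71449044-71449293 on the minus strand for DHCR7, chr12:109573544-109573793 on the plus strand for MVK, chr17:41919023-41919272 on the minus strand for ACLY and chr1:155308616-155308865 on the plus strand for FDPS, each printed 5′ to 3′ on the strand of its gene.
ELOVL5: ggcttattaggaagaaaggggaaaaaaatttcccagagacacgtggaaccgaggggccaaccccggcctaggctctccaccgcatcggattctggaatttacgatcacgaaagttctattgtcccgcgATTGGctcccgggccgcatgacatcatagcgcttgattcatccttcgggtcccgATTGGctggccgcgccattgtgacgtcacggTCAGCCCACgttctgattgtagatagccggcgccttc
DHCR7: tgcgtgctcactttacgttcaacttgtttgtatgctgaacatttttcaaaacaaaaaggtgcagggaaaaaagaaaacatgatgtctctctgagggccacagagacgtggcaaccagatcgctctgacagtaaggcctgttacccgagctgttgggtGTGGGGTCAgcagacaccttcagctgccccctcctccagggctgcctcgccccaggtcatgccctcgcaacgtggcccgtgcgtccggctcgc
MVK: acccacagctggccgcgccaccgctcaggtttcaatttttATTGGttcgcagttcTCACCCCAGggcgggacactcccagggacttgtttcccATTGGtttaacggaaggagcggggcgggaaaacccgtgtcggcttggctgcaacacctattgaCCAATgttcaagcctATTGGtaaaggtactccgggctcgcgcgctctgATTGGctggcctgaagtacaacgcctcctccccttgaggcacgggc
ACLY: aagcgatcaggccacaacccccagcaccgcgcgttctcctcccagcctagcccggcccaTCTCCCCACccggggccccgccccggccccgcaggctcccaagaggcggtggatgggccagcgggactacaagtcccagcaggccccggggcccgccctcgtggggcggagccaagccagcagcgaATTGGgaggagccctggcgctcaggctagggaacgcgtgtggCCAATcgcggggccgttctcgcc
FDPS: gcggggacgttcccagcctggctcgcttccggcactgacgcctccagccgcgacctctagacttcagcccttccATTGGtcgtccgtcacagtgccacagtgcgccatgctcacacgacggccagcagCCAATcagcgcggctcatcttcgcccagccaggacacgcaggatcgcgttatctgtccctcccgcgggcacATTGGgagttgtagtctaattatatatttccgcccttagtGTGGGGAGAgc
The SREBP site lay between 37 and 29 bases before the start of ELOVL5 as TCAGCCCAC, with CCAAT matches on the opposite strand at 122 and at 68 bases before it. In MVK the site lay 195 bases before the start as TCACCCCAG, in a window with 5 CCAAT matches, and shared 1 base with an Sp1 match. In FDPS it lay 11 bases before the start on the opposite strand, in ACLY 191 bases before and in DHCR7 93 bases before on the opposite strand; for ACLY and DHCR7 another RefSeq start has its own window.

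The SREBP site was found in 7 of the 27 members with a window (25.9%), against 10.6% of all 27305 genes with one and 12.2% of the 11866 tested genes with one. CCAAT was found in 21 members (77.8%), against 37.0% of all genes and 41.0% of tested genes, and the Sp1 box in 25 (92.6%), against 46.2% of all genes and 70.6% of tested genes. The E-box was found in 3 members (11.1%), against 7.73% of all genes and 10.7% of tested genes. Of the 17 members with a window that fell in untreated edited cells, 6 held the SREBP site and 14 held CCAAT, and of the other 10 members 1 held the SREBP site and 7 held CCAAT. SCD and FADS2 held no match to the SREBP site in their windows, and ACAT2 had no window. A match describes these letters only.

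**Figure D3:**
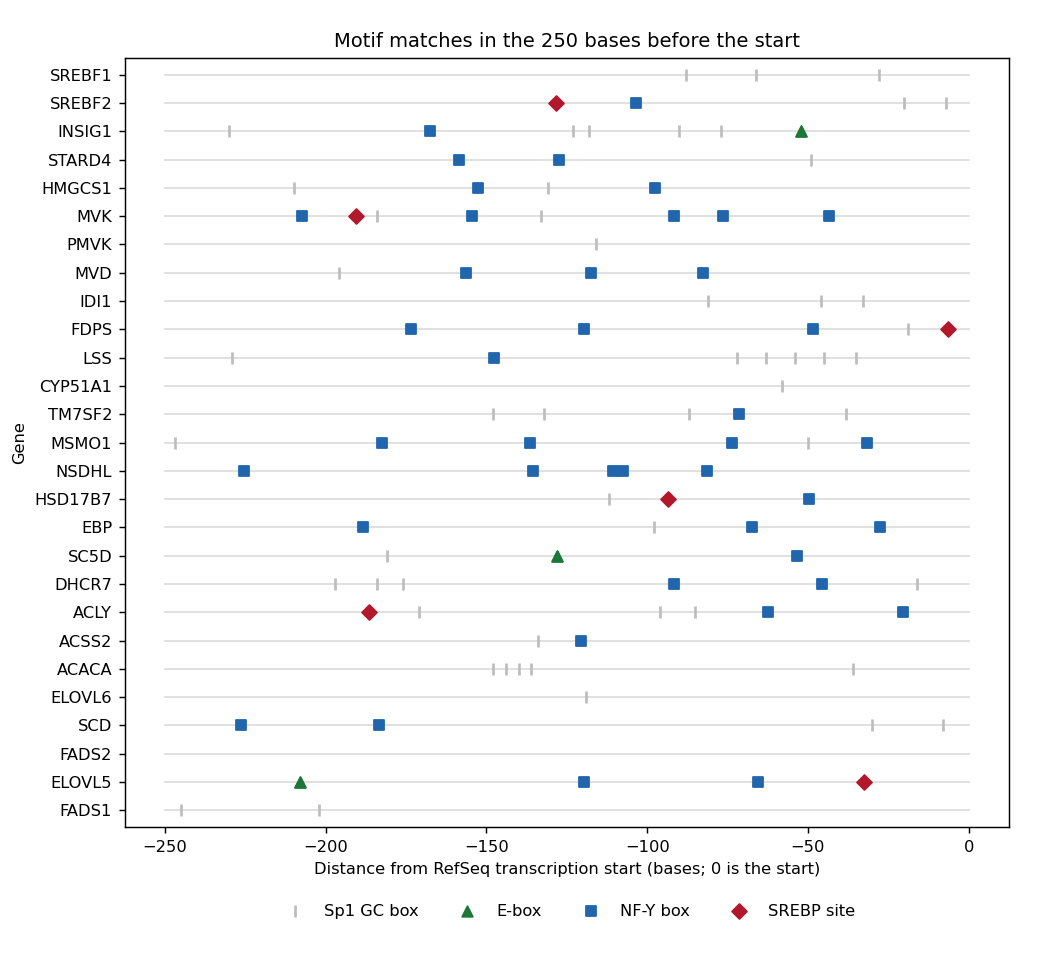
Positions of matches to the SREBP site, CCAAT, the Sp1 box and the E-box in the 250 bases before 1 RefSeq start of each of 27 members, as distance from the start in bases. CCAAT and Sp1 matches occur in most members and SREBP-site matches in few. For DHCR7 the window drawn, which holds its CCAAT matches, is not the one printed above. Its SREBP-site match lies in the printed window and is not drawn.

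TGFβ changed synthesis genes of all 4 roles in both lines. In both lines the fatty acid genes ACLY, FASN, SCD, FADS2 and ELOVL5 rose, as did SQLE, LSS, TM7SF2 and HSD17B7 of the sterol route and INSIG1, which makes 10 members higher in both. In both lines 8 members fell, namely SREBF1, HMGCS1, PMVK, IDI1, FDPS, CYP51A1, SC5D and ELOVL6. With TGFβ 12 members rose and 8 fell in edited cells (64.5% of the members, against 62.8% of all tested genes, 32.1% higher and 30.7% lower). In wild-type cells 10 rose and 17 fell (87.1%, against 61.7%, 30.8% higher and 30.9% lower). The share in edited cells is near that of all genes. Libraries with and without TGFβ did not overlap for 12 higher and 8 lower members in edited cells, against 35% and 34.2% of all tested genes, and for 10 higher and 14 lower members in wild-type cells, against 32.2% and 32%. The median log2 fold change of the members was 0.07 in edited cells and -0.29 in wild-type cells; the first was -0.0064 when every library was scaled to an equal total.

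**Figure D4:**
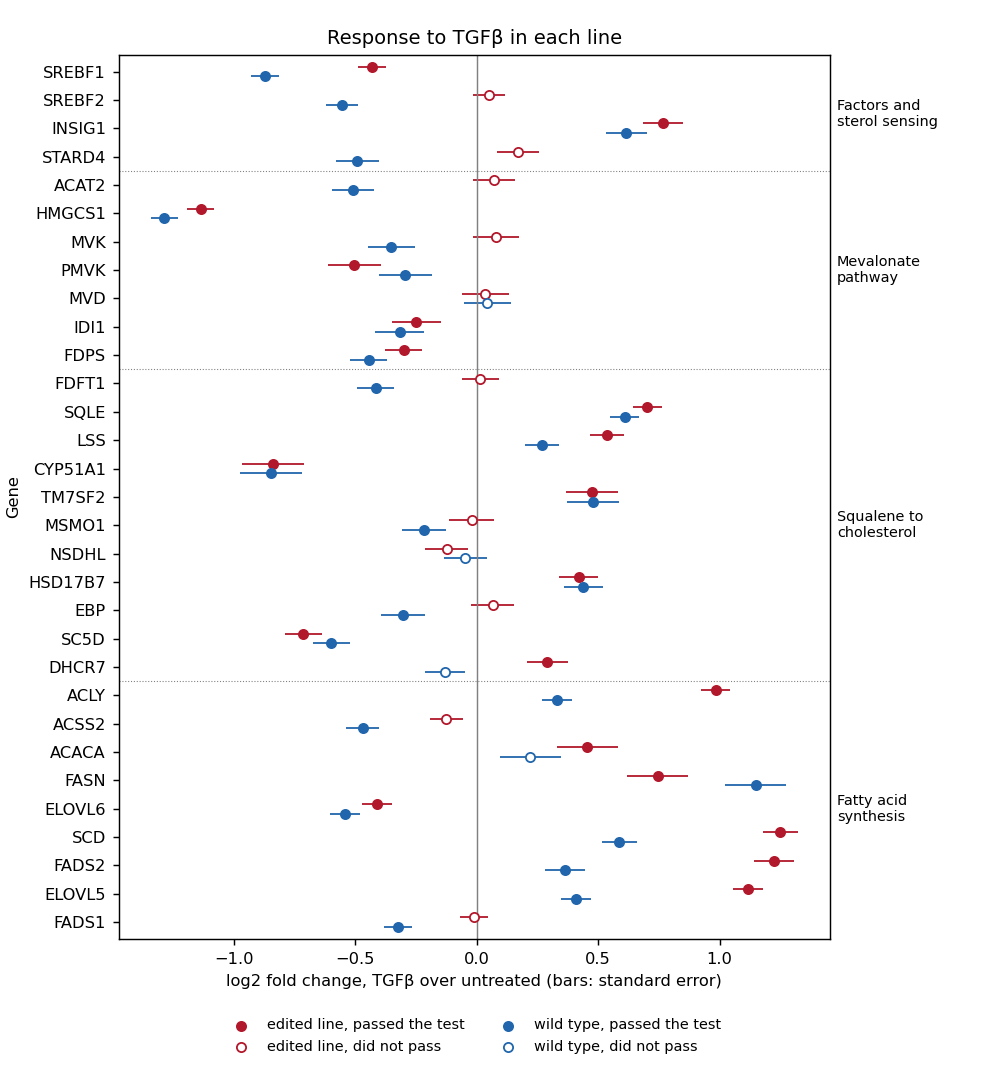
Log2 fold change with TGFβ of each of the 31 members in the edited line (red) and the wild-type line (blue), with bars for the standard error and filled points for genes past the adjusted p threshold of 0.05. The edited points lie to the right of the wild-type points for SREBF1, SREBF2, STARD4, ACAT2, ACLY, SCD, FADS2 and ELOVL5, while the points of HMGCS1, SQLE, CYP51A1, TM7SF2 and HSD17B7 lie close together.

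The 4 largest rises in edited cells were of fatty acid genes, SCD, FADS2, ELOVL5 and ACLY. In wild-type cells FASN rose most, followed by INSIG1 and SQLE. SCD had 138175, 124522 and 140998 normalized counts in edited cells with TGFβ, against 59358, 52969.6 and 57339 untreated, a log2 fold change of 1.25 ± 0.07 (adjusted p = 1.96e-10). In wild-type cells SCD had 146513, 146321 and 156372 with TGFβ, against 104368, 94479 and 100284 untreated, a log2 fold change of 0.59 ± 0.07 (adjusted p = 2.19e-06). No library with TGFβ overlapped an untreated library of its line. FADS2 had 34169, 28504 and 33489 in edited cells with TGFβ and 41850.1, 36893 and 37687 in wild-type cells with TGFβ. Its log2 fold change was 1.22 ± 0.08 (adjusted p = 1.67e-09) in edited cells and 0.36 ± 0.08 (adjusted p = 0.00118) in wild-type cells. For ELOVL5 it was 1.12 ± 0.06 (adjusted p = 1.29e-10) in edited cells and 0.41 ± 0.06 (adjusted p = 2.39e-05) in wild-type cells. ELOVL5 had 32835, 30645 and 33787 in edited cells with TGFβ and 34523, 34267 and 33058 in wild-type cells with TGFβ, ranges that overlapped. ACLY had 70592, 72714 and 72627 in edited cells with TGFβ and 55748, 60165 and 64157 in wild-type cells with TGFβ. Its log2 fold change was 0.98 ± 0.06 (adjusted p = 4.89e-10) in edited cells and 0.33 ± 0.06 (adjusted p = 0.000159) in wild-type cells.

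FASN had 8290.4, 9877 and 8781 normalized counts in edited cells with TGFβ, against 5966, 4811 and 5319 untreated, and 9453, 11102 and 14555 in wild-type cells with TGFβ, against 5015, 4877 and 5736 untreated. All libraries with TGFβ were above all untreated ones, and the log2 fold changes were 0.75 ± 0.12 (adjusted p = 6.68e-05) in edited cells and 1.15 ± 0.12 (adjusted p = 6.2e-07) in wild-type cells. Of the 4 groups, FASN spread most in wild-type cells with TGFβ, and the mitochondrial shares of those libraries were 3.79%, 3.22% and 2.73% in the same replicates 1, 2 and 3; the part of this share in the spread was not tested. ACACA, whose enzyme supplies FASN with malonyl-CoA, had 10048, 11919 and 15673 in those same libraries and was called higher with TGFβ in edited cells (0.46 ± 0.13, adjusted p = 0.00468) and not in wild-type cells. ELOVL6 fell in both lines. It fell to 2172 ± 101 in edited cells with TGFβ, against 2885 ± 70.3 untreated (log2 fold change -0.41 ± 0.06, adjusted p = 2.45e-05). It fell to 1862 ± 43.8 in wild-type cells with TGFβ, against 2709.6 ± 128 untreated (log2 fold change -0.54 ± 0.06, adjusted p = 1.24e-06). FADS1 and ACSS2 fell with TGFβ in wild-type cells (-0.32 ± 0.06, adjusted p = 0.000118 and -0.47 ± 0.07, adjusted p = 1.52e-05) and were not called in edited cells.

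In the mevalonate pathway 4 of the 7 genes (57.1%) fell with TGFβ in edited cells and 6 (85.7%) in wild-type cells, against 30.7% and 30.9% of all tested genes lower and 62.8% and 61.7% called in either direction. None rose in either line by limma, by edgeR or at an unadjusted p under 0.05, where the count was 0 in both. HMGCS1 had the largest fall of the 31 members in wild-type cells, with 6724, 6819 and 7286 normalized counts with TGFβ, against 17116, 16927 and 16706 untreated, a log2 fold change of -1.29 ± 0.06 (adjusted p = 6.89e-12). In edited cells it had 6036, 5831 and 6359 with TGFβ, against 12852, 13903 and 13301 untreated, a log2 fold change of -1.14 ± 0.06 (adjusted p = 2.97e-11). The groups were far apart in both lines. FDPS fell by 0.30 on the log2 scale in edited cells (adjusted p = 0.00285) and by 0.44 in wild-type cells (adjusted p = 0.000101). PMVK fell by 0.50 in edited cells (adjusted p = 0.000739) and by 0.29 in wild-type cells (adjusted p = 0.0279). IDI1 fell by 0.25 in edited cells (adjusted p = 0.0407) and by 0.32 in wild-type cells (adjusted p = 0.0118). ACAT2 and MVK fell in wild-type cells, to 3003, 2479.6 and 2401 for ACAT2 (log2 fold change -0.51 ± 0.08, adjusted p = 7.02e-05) and to 1076, 868 and 893 for MVK (log2 fold change -0.35 ± 0.10, adjusted p = 0.00449). In edited cells they were not called, at 2079.7, 1975 and 2099 for ACAT2 and 962, 872 and 907 for MVK with TGFβ, against the untreated levels given above.

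The sterol genes moved both ways. SQLE, which commits squalene to sterols, had 10359, 9739 and 10418 normalized counts in edited cells with TGFβ, against 6293, 6057 and 6398 untreated, and 10704, 10398 and 10709.6 in wild-type cells with TGFβ, against 7387, 6394 and 7088 untreated. The groups were apart in both lines, with log2 fold changes of 0.70 ± 0.06 (adjusted p = 3.05e-08) in edited cells and 0.61 ± 0.06 (adjusted p = 1.82e-07) in wild-type cells. TM7SF2 and HSD17B7, reductases of the later steps, rose by 0.47 and 0.42 on the log2 scale in edited cells (adjusted p = 0.000977 and 0.000244) and by 0.48 and 0.44 in wild-type cells (adjusted p = 0.000954 and 0.000172). LSS rose by 0.54 in edited cells (adjusted p = 4.87e-06) and 0.27 in wild-type cells (adjusted p = 0.00347). CYP51A1, the lanosterol demethylase, and SC5D fell in both lines. CYP51A1 had log2 fold changes of -0.84 ± 0.13 (adjusted p = 2.46e-05) in edited cells and -0.85 ± 0.13 (adjusted p = 2.43e-05) in wild-type cells. SC5D had -0.71 ± 0.08 (adjusted p = 5.66e-07) in edited cells and -0.60 ± 0.08 (adjusted p = 4.58e-06) in wild-type cells. Of the bases in CYP51A1 exons, 79.4% also lie in exons of 1 other annotated gene on the same strand (GENCODE 29), so its counts are uncertain. FDFT1, MSMO1 and EBP fell in wild-type cells and were not called in edited cells. Their log2 fold changes in wild-type cells were -0.42 ± 0.08 (adjusted p = 0.000197) for FDFT1, -0.22 ± 0.09 (adjusted p = 0.0497) for MSMO1 and -0.30 ± 0.09 (adjusted p = 0.00813) for EBP. DHCR7 rose in edited cells (0.29 ± 0.08, adjusted p = 0.00641) and was not called in wild-type cells. With TGFβ NSDHL, a sterol dehydrogenase, averaged 2770.4 ± 247 in edited cells and 3359.5 ± 451 in wild-type cells, and limma called it in none of the 5 comparisons. By edgeR it was called lower in edited cells than in wild-type cells with TGFβ. MVD, called with TGFβ in neither line, averaged 1215 ± 65.6 in edited cells and 1500.4 ± 128 in wild-type cells with TGFβ.

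Of the control factors, SREBF1 fell with TGFβ in both lines and INSIG1 rose. SREBF1 had 6563, 6087 and 6142 normalized counts in edited cells with TGFβ and 5738, 5565 and 5868 in wild-type cells with TGFβ, all below the untreated libraries of the same line. Its log2 fold change was -0.43 ± 0.06 (adjusted p = 6.26e-06) in edited cells and -0.87 ± 0.06 (adjusted p = 1.59e-09) in wild-type cells. INSIG1 had 3197, 3129 and 3362 in edited cells with TGFβ and 3163, 2984 and 3298 in wild-type cells with TGFβ, all above the untreated libraries. Its log2 fold changes were 0.77 ± 0.08 (adjusted p = 5.16e-07) in edited cells and 0.62 ± 0.08 (adjusted p = 6.68e-06) in wild-type cells. SREBF2 had 10039, 8910.3 and 9957 in edited cells with TGFβ, a range that overlapped the untreated one (log2 fold change 0.05 ± 0.07, 95% interval -0.09 to 0.19, adjusted p = 0.528, and -0.02 with equal totals). In wild-type cells it fell to 7676, 7752 and 8428 with TGFβ, below every untreated library (log2 fold change -0.55 ± 0.07, adjusted p = 1.93e-06). STARD4 fell in wild-type cells, to 4652, 4572 and 5651 with TGFβ (log2 fold change -0.49 ± 0.09, adjusted p = 0.00013), and had 4576, 4785 and 5093 in edited cells with TGFβ, where it was not called.

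Of the calls with TGFβ, 5 were lost when a single library was left out. In wild-type cells the EBP and IDI1 calls were lost without untreated wild-type replicate 1 (-0.22 and -0.21), and the PMVK call without untreated wild-type replicate 1 or 2 (-0.25 and -0.30) or TGFβ wild-type replicate 2 or 3 (-0.27 and -0.18). The MSMO1 call in wild-type cells, with its adjusted p next to the threshold, was lost without untreated wild-type replicate 1 or 3 (-0.11 and -0.25) and without TGFβ wild-type replicate 2 or 3 (-0.20 and -0.21). It was also lost, at the unchanged value of -0.22, without any untreated edited library or TGFβ edited replicate 1. The IDI1 call in edited cells was lost without TGFβ edited replicate 1 or 2 (-0.23 and -0.19) and without untreated edited replicate 2 or 3 (-0.27 and -0.19). At -0.25 it was lost without untreated wild-type replicate 3 or TGFβ wild-type replicate 2, and with no filter on low values. The MSMO1 call in wild-type cells was also lost with a pseudocount of 0.5, with no filter and when the fit held only the compared groups. The PMVK call in wild-type cells was also lost when the fit held only the compared groups.

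**Figure D5:**
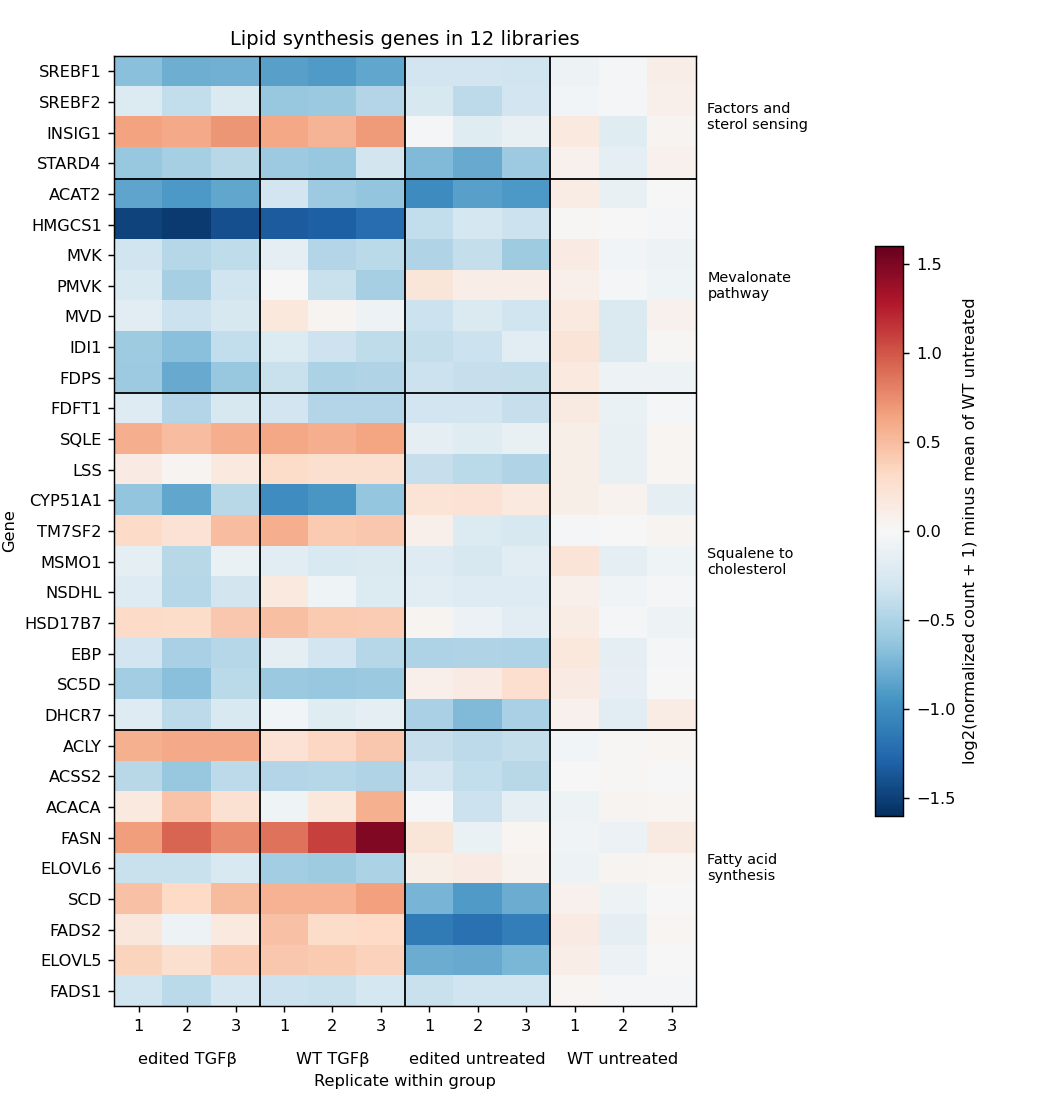
Log2 ratio of each library to the mean of untreated wild-type libraries for the 31 members, ordered by role, with libraries in the order edited with TGFβ, wild type with TGFβ, edited untreated and wild type untreated. SCD, ELOVL5 and ACLY are above untreated wild type in both groups with TGFβ and below it in untreated edited cells, and most mevalonate genes are below untreated wild type in the other 3 groups.

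The response to TGFβ itself differed between the lines for 13 members, and in all 13 it was more positive in the edited line (41.9% of the members, against 16.6% of all tested genes called in either direction, 10.6% more positive and 6.02% more negative). No member was more negative by limma or edgeR, and 1, FASN, was at an unadjusted p under 0.05. The median difference in log2 response, edited minus wild type, was 0.23 over the members and 0.0237 over all tested genes. The 13 were 6 of the 9 fatty acid genes (66.7%), 3 of the 4 control factors (75%), 2 of the 7 mevalonate genes (28.6%) and 2 of the 11 sterol genes (18.2%). The sterol share is near the 16.6% of all tested genes called in either direction. The largest differences were for FADS2 (0.86 ± 0.12, adjusted p = 0.000163), ELOVL5 (0.71 ± 0.09, adjusted p = 7.32e-05), SCD (0.66 ± 0.10, adjusted p = 0.000376), STARD4 (0.66 ± 0.12, adjusted p = 0.0018) and ACLY (0.65 ± 0.09, adjusted p = 0.00012). SREBF2 had 0.60 ± 0.09 (adjusted p = 0.000451) and SREBF1 0.44 ± 0.08 (adjusted p = 0.00173). The others were ACAT2 (0.58 ± 0.12), MVK (0.43 ± 0.13), FDFT1 (0.43 ± 0.11), DHCR7 (0.42 ± 0.12), ACSS2 (0.34 ± 0.10) and FADS1 (0.31 ± 0.08).

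All 13 were also among the 19 members that were lower in untreated edited cells. The untreated libraries enter both comparisons, so these counts are not independent of each other. The 13 fall into kinds by what TGFβ did in each line. SCD, FADS2, ELOVL5 and ACLY rose in both lines and by more in edited cells. SREBF2, STARD4, ACAT2, MVK, FDFT1, ACSS2 and FADS1 fell in wild-type cells and were not called in edited cells. SREBF1 fell in both and by less in edited cells, and DHCR7 rose in edited cells and was not called in wild-type cells.

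The MVK difference was lost without untreated wild-type replicate 1 (0.37), TGFβ wild-type replicate 2 or 3 (0.37 and 0.39), untreated edited replicate 1 or 3 (0.43 and 0.39) or TGFβ edited replicate 1 or 3 (0.39 and 0.44). It was also lost with no filter on low values (0.43) and with equal totals (0.38). The DHCR7 difference was lost without untreated wild-type replicate 1 or 3 (0.39 and 0.36), TGFβ wild-type replicate 2 (0.39), untreated edited replicate 2 (0.36) or TGFβ edited replicate 1 or 3 (0.38 and 0.40). The ACSS2 difference was lost without untreated edited replicate 2 or 3 (0.33 and 0.31) or TGFβ edited replicate 1 or 3 (0.32 and 0.31).

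With TGFβ present fewer members differed between the lines. Of the 31 members 3 were higher in edited cells and 3 lower (19.4%, against 11.7% of all tested genes, 7.38% higher and 4.32% lower), and the median log2 fold change was -0.07, against 0.0128 over all tested genes. The lines did not overlap for 4 members higher and 8 lower in edited cells, against 15.2% and 11.4% of all tested genes. ACLY was higher in edited cells with TGFβ, at 71978 ± 1200.5 against 60023 ± 4206 in wild-type cells with TGFβ (0.26 ± 0.06, adjusted p = 0.00914), although it was lower in edited cells without it. SREBF2 was likewise higher, at 9636 ± 629 in edited cells with TGFβ and 7952 ± 414 in wild-type cells with TGFβ (0.28 ± 0.07, adjusted p = 0.0126). So was ELOVL6, at 2172 ± 101 in edited cells with TGFβ and 1862 ± 43.8 in wild-type cells with TGFβ (0.22 ± 0.06, adjusted p = 0.0295). ACAT2 stayed lower in edited cells, at 2051 ± 66.8 with TGFβ against 2628 ± 327 in wild-type cells with TGFβ (-0.35 ± 0.08, adjusted p = 0.0132). FADS2 and HMGCS1 were also lower, with log2 fold changes of -0.28 ± 0.08 (adjusted p = 0.0384) for FADS2 and -0.19 ± 0.06 (adjusted p = 0.0337) for HMGCS1.

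SCD and ELOVL5, which differed between the untreated lines, were not called with TGFβ. SCD averaged 134565 ± 8812 in edited cells and 149735 ± 5748 in wild-type cells with TGFβ, and ELOVL5 32422 ± 1611 in edited cells and 33949 ± 782 in wild-type cells with TGFβ. SREBF1 had a log2 fold change of 0.13 ± 0.06 (95% interval 0.01 to 0.25, adjusted p = 0.17) and INSIG1 of 0.04 ± 0.08 (95% interval -0.14 to 0.21, adjusted p = 0.835); the INSIG1 value was -0.0011 without TGFβ wild-type replicate 2. None of the 6 calls with TGFβ was kept in all alternatives, and each was lost when the fit held only the 2 groups compared. The ACLY and ACAT2 calls were kept without any single library. The SREBF2 call was lost without TGFβ edited replicate 1 or 3 (0.25 and 0.25) or TGFβ wild-type replicate 2 (0.26). The ELOVL6 call was lost without TGFβ edited replicate 1 or 3 (0.24 and 0.18) or TGFβ wild-type replicate 1 or 2 (0.22 and 0.21). The HMGCS1 call was lost without TGFβ edited replicate 1 or 2 (-0.19 and -0.16), TGFβ wild-type replicate 2 or 3 (-0.21 and -0.16) or, at -0.19, replicate 3 of either untreated group. The FADS2 call was lost without TGFβ edited replicate 2 or 3 (-0.20 and -0.31), TGFβ wild-type replicate 1 or 2 (-0.22 and -0.31) or, at -0.28, any untreated edited library or untreated wild-type replicate 3. The FADS2 and HMGCS1 calls were also lost with no filter on low values, and the ELOVL6 call with equal totals.

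The summed level of the 31 members followed SCD and the other abundant fatty acid genes. It took 0.446% to 0.464% of all normalized counts in edited cells with TGFβ, 0.305% to 0.321% in untreated edited cells, 0.468% to 0.513% in wild-type cells with TGFβ and 0.425% to 0.446% in untreated wild-type cells. When each gene had the same weight, the mean log2 ratio of the 9 fatty acid genes to untreated wild type was 0.12 to 0.19 over the libraries of edited cells with TGFβ, -0.49 to -0.38 in untreated edited cells and 0.12 to 0.28 in wild-type cells with TGFβ. The same mean for the 7 mevalonate genes was -0.75 to -0.60 in edited cells with TGFβ, -0.39 to -0.34 in untreated edited cells and -0.54 to -0.31 in wild-type cells with TGFβ. The means of the 2 roles thus lay on opposite sides of untreated wild type with TGFβ and on the same side in untreated edited cells. Single genes departed from these means. The fatty acid genes ACSS2, ELOVL6 and FADS1 averaged below untreated wild type in both groups with TGFβ. MVD of the mevalonate pathway averaged above it in wild-type cells with TGFβ. These ratios were not tested.

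Other genes of lipid metabolism were counted in 6 lists chosen by function. Their shares called are to be read against all tested genes, of which 31.8% were called between the untreated lines, 11.7% between the lines with TGFβ, 62.8% with TGFβ in edited cells, 61.7% with TGFβ in wild-type cells and 16.6% in the difference in response. Of 17 tested genes for transport, esterification and efflux of cholesterol, 4 were higher and 5 lower in untreated edited cells. ABCG1 and ABCA1, which export cholesterol and are known targets of oxysterol-sensing LXR receptors, were higher. ABCG1 averaged 796 ± 43.5 normalized counts in untreated edited cells and 308 ± 21.5 in untreated wild-type cells (1.37 ± 0.08, adjusted p = 1.15e-08). ABCA1 averaged 860.4 ± 83.3 in untreated edited cells and 486 ± 32.3 in untreated wild-type cells (0.82 ± 0.15, adjusted p = 0.000753). NPC1, which releases cholesterol from lysosomes, was higher by 0.57 on the log2 scale (adjusted p = 5.35e-06). With TGFβ, 5 of the 17 were higher in edited cells and none lower, among them ABCG1 (1.00 ± 0.08), ABCA1 (0.88 ± 0.15) and NPC1 (0.38 ± 0.06), with adjusted p of 1.52e-06, 0.00149 and 0.000951. TGFβ raised 9 and lowered 5 of the 17 in edited cells and raised 8 and lowered 5 in wild-type cells. NPC2, the soluble lysosomal partner of NPC1, rose by 2.93 in edited cells (adjusted p = 4.64e-13) and 2.49 in wild-type cells (adjusted p = 3.95e-12). The difference in response was called for 4 more positive and 2 more negative genes. The shares called were 52.9% between the untreated lines, 29.4% between the lines with TGFβ, 82.4% with TGFβ in edited cells, 76.5% with TGFβ in wild-type cells and 35.3% in the difference in response.

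Of 21 tested genes that supply, elongate or activate fatty acids, 1 was higher and 8 lower in untreated edited cells. The higher gene was ACSL5, an acyl-CoA synthetase, with 146 ± 35.2 normalized counts in untreated edited cells and 56.4 ± 8.79 in untreated wild-type cells (1.34 ± 0.17, adjusted p = 2.64e-05). SLC25A1, which carries citrate out of mitochondria to ACLY, was lower (-0.60 ± 0.10, adjusted p = 0.000203), and its response to TGFβ was more positive in edited cells by 0.55 ± 0.14 (adjusted p = 0.0117). Of the 21, TGFβ raised 10 and lowered 7 in edited cells and raised 9 and lowered 8 in wild-type cells, ACSL5 by 2.99 in edited cells (adjusted p = 2.54e-10) and 3.03 in wild-type cells (adjusted p = 2.44e-10). With TGFβ 2 were higher in edited cells and none lower, and the difference in response was more positive for 5 and more negative for none, with SCD5, another delta-9 desaturase, at 0.74 ± 0.14 (adjusted p = 0.00244). The share called was 42.9% between the untreated lines, 9.52% between the lines with TGFβ, 81.0% with TGFβ in each line and 23.8% in the difference in response; that between the lines with TGFβ is below the share of all genes.

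Of 18 genes of fatty acid oxidation, which breaks down what the synthesis route makes, none was higher and 5 were lower in untreated edited cells. Among them were HADH (-0.65 ± 0.07, adjusted p = 3.75e-06) and HADHA (-0.49 ± 0.06, adjusted p = 8.62e-06), enzymes of the mitochondrial cycle. TGFβ raised 2 and lowered 11 in edited cells and raised none and lowered 11 in wild-type cells. The difference in response was more positive for 4 and more negative for none, with HADH at 0.79 ± 0.10 (adjusted p = 7.99e-05). With TGFβ 1 gene, the coactivator PPARGC1A, was higher in edited cells (0.67 ± 0.08, adjusted p = 7.24e-05). Of these 18 genes 27.8% were called between the untreated lines and 5.56% between the lines with TGFβ, both below the share of all genes. With TGFβ 72.2% were called in edited cells and 61.1% in wild-type cells, and 22.2% in the difference in response.

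Of 17 tested genes of glycerolipid synthesis and storage, 6 were higher and 5 lower in untreated edited cells, and 2 were higher and 2 lower in edited cells with TGFβ. TGFβ raised 9 and lowered 5 in each line, and 1 differed each way in the response. The share called was 64.7% between the untreated lines, 23.5% between the lines with TGFβ, 82.4% with TGFβ in each line and 11.8% in the difference in response, the last below the share of all genes. GPAM, the mitochondrial acyltransferase that starts glycerolipid synthesis, had 15511 ± 703 normalized counts in edited cells with TGFβ, 2865 ± 21 in untreated edited cells, 7566 ± 919 in wild-type cells with TGFβ and 2139.8 ± 106 in untreated wild-type cells. It rose with TGFβ by 2.44 in edited cells (adjusted p = 1.05e-13) and 1.82 in wild-type cells (adjusted p = 4.46e-12), a difference of 0.62 ± 0.11 (adjusted p = 0.000989). GPAT3, an acyltransferase of the endoplasmic reticulum, fell in both lines (-2.44 ± 0.06, adjusted p = 1.23e-14 in edited cells and -2.20 ± 0.06, adjusted p = 4.82e-14 in wild-type cells).

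Of 11 genes that process SREBPs, 3 were higher and 1 lower in untreated edited cells, and 2 were higher and 1 lower in edited cells with TGFβ. TGFβ raised 4 and lowered 6 in edited cells and raised 2 and lowered 4 in wild-type cells, and 1 differed each way in the response. Of the 11, 36.4% were called between the untreated lines, 27.3% between the lines with TGFβ and 18.2% in the difference in response. With TGFβ 90.9% were called in edited cells and 54.5% in wild-type cells, where the share is below that of all genes. MBTPS2, the site-2 protease that releases SREBPs from the membrane, fell with TGFβ (-0.89 ± 0.05, adjusted p = 5.1e-10 in edited cells and -0.93 ± 0.05, adjusted p = 3e-10 in wild-type cells). MBTPS1, the site-1 protease, was lower in untreated edited cells (-0.23 ± 0.05, adjusted p = 0.0028) and averaged 20932 ± 611 with TGFβ against 11569 ± 545 untreated in edited cells, and 19690.3 ± 132 with TGFβ against 13567 ± 130.2 untreated in wild-type cells. It rose in both lines, by 0.86 in edited cells (adjusted p = 4.22e-10) and 0.54 in wild-type cells (adjusted p = 1.49e-07), and the responses differed by 0.32 ± 0.07 (adjusted p = 0.00704). Of 13 genes of the non-sterol branch, which turns mevalonate products into prenyl groups, ubiquinone and dolichol, 5 were higher and 4 lower in untreated edited cells, and none was higher and 1 lower in edited cells with TGFβ. TGFβ raised 1 and lowered 8 in edited cells and raised 2 and lowered 9 in wild-type cells. The difference in response was more positive for none and more negative for 2. Of the 13, 69.2% were called between the untreated lines, 69.2% with TGFβ in edited cells and 84.6% with TGFβ in wild-type cells. Between the lines with TGFβ 7.69% were called and in the difference in response 15.4%, both below the share of all genes. GGPS1, which makes geranylgeranyl diphosphate, fell with TGFβ in both lines (-0.94 ± 0.07, adjusted p = 3.26e-09 in edited cells and -0.80 ± 0.07, adjusted p = 2.5e-08 in wild-type cells).

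For the counts of 0 in these lists, an unadjusted p under 0.05 gave 0 lower transport genes and 4 lower fatty acid supply genes in edited cells with TGFβ, and 3 supply genes with a more negative response. In fatty acid oxidation it gave 0 higher genes in untreated edited cells, 1 higher gene with TGFβ in wild-type cells and 1 gene with a more negative response. In the non-sterol branch it gave 2 higher genes in edited cells with TGFβ and 1 with a more positive response. By edgeR these counts were 0 apart from 1 supply gene, HACD1, and 1 oxidation gene, ACADVL, each with a more negative response, both named after their values were seen.

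Some member counts carry an uncertainty that the table cannot settle, because no source used here states whether counting took account of strand. Of the bases in ACAT2 exons, 33.9% overlap exons of SOD2-OT1 on the other strand. Summed over all overlapping genes, the overlap was 2996 bases for 4299 exon bases of ACAT2. This sum may count a base more than once. FADS1 and FADS2 overlap each other on opposite strands in 4.79% of FADS1 and 4.44% of FADS2 exon bases. FDPS has 8 pseudogenes by name, CYP51A1 3, HSD17B7 2, and SCD and FADS2 1 each, which could share reads with them.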

How the data were processed

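RNA of 12 libraries was measured as normalized counts per gene, a signal the authors deposited; the submitters' processing notes name DESeq2, featureCounts, HISAT2 and StringTie, and the build GRCh38.p14. Tool versions and roles were not given in the sources used here. Each library's values were multiples of 1 step, and division by it recovered whole reads within 0.01 for 100% of values (largest deviation 0.000414). For untreated wild-type replicate 1 the step is 0.997, too near 1 for this alone to show that its values are scaled reads. Genes with at least 10 in at least 3 libraries (20456 of 58830, of which 28 entries carry date-like names) were fitted as log2(value + 1) with limma 3.58.1 (trend, R 4.3.3) in 1 fit of 4 group means, giving 5 two-sided comparisons adjusted by Benjamini-Hochberg; the threshold was 0.05. Fold changes on this scale understate changes of low genes. Values after ± are SD for means and standard errors for log2 fold changes. The members, companion lists and tests were chosen with earlier results of these data known. All members could be named; fold changes were printed for called members, and for SREBF1, SREBF2 and INSIG1 with any result in the TGFβ and line comparisons. Of each companion list, up to 3 called genes per comparison with the largest change and a mean of at least 100 could be named, and 5 promoters of called members with the largest change that hold an SREBP site were printed. Alternatives were edgeR 4.0.16 on the recovered reads, other scalings, filters, pseudocounts and fits, a replicate block, and leaving out each library. The fit was checked on simulated data.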

Additional observations from a re-analysis of the deposited data

Results flagged for a closer look

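The response to TGFβ differed between the lines, by the interaction term in limma, for 13 of the 31 members. The values are the log2 response in edited cells minus that in wild-type cells, with the standard error.

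Among the fatty acid genes the difference was 0.86 ± 0.12 (adjusted p = 0.000163) for FADS2, 0.71 ± 0.09 (adjusted p = 7.32e-05) for ELOVL5, 0.66 ± 0.10 (adjusted p = 0.000376) for SCD, 0.65 ± 0.09 (adjusted p = 0.00012) for ACLY, 0.34 ± 0.10 (adjusted p = 0.0213) for ACSS2 and 0.31 ± 0.08 (adjusted p = 0.0142) for FADS1. Among the control factors it was 0.66 ± 0.12 (adjusted p = 0.0018) for STARD4, 0.60 ± 0.09 (adjusted p = 0.000451) for SREBF2 and 0.44 ± 0.08 (adjusted p = 0.00173) for SREBF1. In the mevalonate pathway it was 0.58 ± 0.12 (adjusted p = 0.00353) for ACAT2 and 0.43 ± 0.13 (adjusted p = 0.0388) for MVK. Among the sterol genes it was 0.43 ± 0.11 (adjusted p = 0.0128) for FDFT1 and 0.42 ± 0.12 (adjusted p = 0.0231) for DHCR7. The response of all 13 was more positive in the edited line, whose untreated libraries held lower levels of the same 13 genes. The untreated libraries enter both comparisons, so neither result is independent of the other. Since groups of 3 libraries were not tested for single libraries standing apart, no such result is given.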

How the results depend on the processing

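Untreated, 18 to 22 members were lower in edited cells under the 10 alternatives of processing and fit and 17 to 22 with a library left out, and none was higher in any of them. With TGFβ, 19 to 22 members were called in edited cells and 25 to 27 in wild-type cells (19 to 21 and 23 to 28 with a library left out), and 12 to 14 differed in response (10 to 15). Calls kept in every alternative numbered 17 of 19 for the untreated lines, 19 of 20 for TGFβ in edited cells, 23 of 27 for TGFβ in wild-type cells and 10 of 13 for the difference in response. The edited line against wild type with TGFβ was the comparison that moved: the 3 lower members became 1 with no filter, 5 with a filter of 50, 5 with TMM factors, 6 with equal totals, 5 by edgeR, 7 with the replicate block and 0 when the fit held the compared groups alone, and 1 to 4 with a library left out (1 without TGFβ edited replicate 2, TGFβ wild-type replicate 2, or replicate 3 of either untreated group). The 3 higher members became 0 when the fit held the compared groups alone, and 1 to 3 with a library left out (1 without TGFβ edited replicate 1 or 3 or TGFβ wild-type replicate 2). The 6 called became 10 with the block and 0 with only the compared groups, and 2 to 7 with a library left out (2 without TGFβ wild-type replicate 2, 3 without TGFβ edited replicate 3); the cause was not tested. One member was more negative in its response without TGFβ wild-type replicate 1 (range 0 to 1). The members' median change with TGFβ in wild-type cells ran from -0.31 to -0.21 with a library left out, with -0.21 without untreated wild-type replicate 1 and without TGFβ wild-type replicate 3. Uncalled values changed sign for SREBF2 with TGFβ in edited cells (-0.0217 with equal totals) and for INSIG1 between the lines with TGFβ (-0.0011 to 0.0711 with a library left out, the lowest without TGFβ wild-type replicate 2). Whether replicate numbers pair the libraries is not settled by these values. The deviations of the 18 same-numbered pairs correlated between -0.031 and 0.129, with a median of 0.011 against -0.0081 for other pairs. With the block 27, 21, 22, 10 and 14 members were called for TGFβ in wild-type cells, TGFβ in edited cells, the untreated lines, the lines with TGFβ and the difference in response. Of all tested genes the block called more in each comparison, between the lines with TGFβ 2987 against 2394. With 3 libraries a group, small differences may go uncalled.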
